A study of Mus musculus with 18 samples.

Results

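The fibrillar collagen genes examined here were a set of 9 named genes out of the 55469 gene IDs that were quantified: Col1a1, Col1a2, Col3a1, Col5a1, Col5a2, Col5a3, Col11a1, Col12a1 and Col14a1. They were listed by name as a gene family, and the list was drawn up with earlier results of these data known. The first 7 encode fibril-forming chains of types I, III, V and XI. Col12a1 and Col14a1 encode fibril-associated collagens, which bind to fibrils and do not form them, so the family name is exact for 7 of the 9 members. RNA was taken from prostate, the ventral together with the lateral lobes, of males of the strain labelled C56NL/6N. Every mouse carried TRAMP +/-, the transgene that drives SV40 T antigens in the prostate epithelium and produces prostate tumours. WT-TRAMP mice were ELAC2+/+, KO-TRAMP mice carried the homozygous conditional Elac2 knockout driven by Pb-Cre, and A537T-TRAMP mice were homozygous for the A537T substitution in every tissue. Each line was sampled at 10 and 30 weeks of age, with 3 mice per group and 18 libraries in all. The Pb (probasin) promoter is active in prostate epithelium, where both the T antigens and the Cre recombinase are meant to act. Which cells lost Elac2 was not measured here. Libraries are named by the number in their column headers, and the numbers do not pair mice across groups. All 9 members passed the filter on low values in every comparison.

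Fibrillar collagens are secreted triple helices that assemble outside the cell into the cross-banded fibrils giving connective tissue its tensile strength. Type I, built from Col1a1 and Col1a2 chains, is the bulk of most fibrils, type III (Col3a1) joins it in distensible organs, and types V and XI lie in the fibril core and set where fibrils start and how thick they grow. Types XII and XIV decorate the fibril surface and link it to the surrounding matrix. In the prostate these chains are made mainly by fibroblasts and smooth muscle cells of the stroma, and not by the secretory epithelium.

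The libraries held between 9380174 and 14830104 recovered reads. Each comparison was made within the table in which the mutant and WT-TRAMP libraries of that age had been normalised together. Elac2 itself, at 254 to 301 normalised reads in KO-TRAMP against 289 to 359 in WT-TRAMP at 10 weeks and at 249 to 267 against 251 to 319.6 at 30 weeks, overlapped between the groups at both ages (exact two-sided permutation test, p = 0.2 at either age, where 0.1 is the smallest value 3 against 3 allows). Reads from exons outside the deleted part and from cells that kept the gene can count toward Elac2, and their share was not measured. Its level therefore did not check the labels. The group of each library was read from the comparisons it was normalised in, because the headers name no group. Seminal vesicle secretory genes, which are no prostate product, took over 1% of reads in 7 libraries: 5, 6, 9, 10, 12, 13 and 15. In bulk tissue, fewer cells of a type and less RNA per cell cannot be told apart.

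The stretches around the start sites of Col3a1, Col1a2 and Col5a1 are shown because these genes stand for fibril types III, I and V, each with a chain called in KO-TRAMP at 30 weeks, and because all 3 hold the Smad box. They are the plus-strand RefSeq promoters on GRCm38.p6, 250 bases before the start and 50 from it on, at chr1:45311288-45311587 for Col3a1, chr6:4505368-4505667 for Col1a2 and chr2:27886175-27886474 for Col5a1. Capitals mark matches on either strand to the TATA box TATAAA, the CCAAT box, the GC box GGGCGG or the Smad box CAGACA, and no matches overlapped.
Col3a1: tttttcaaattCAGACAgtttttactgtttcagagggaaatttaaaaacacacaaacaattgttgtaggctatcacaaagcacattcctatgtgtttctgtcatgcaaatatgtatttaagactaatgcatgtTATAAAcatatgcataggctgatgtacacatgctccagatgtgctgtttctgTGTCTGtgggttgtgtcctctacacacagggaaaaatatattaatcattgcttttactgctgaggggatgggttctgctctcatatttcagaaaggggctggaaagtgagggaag
Col1a2: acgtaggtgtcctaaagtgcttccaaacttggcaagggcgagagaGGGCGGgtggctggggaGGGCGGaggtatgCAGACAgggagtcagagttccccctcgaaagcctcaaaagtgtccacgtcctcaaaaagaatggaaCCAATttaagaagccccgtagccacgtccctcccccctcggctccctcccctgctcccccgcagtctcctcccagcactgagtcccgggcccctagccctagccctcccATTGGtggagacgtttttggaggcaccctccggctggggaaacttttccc
Col5a1: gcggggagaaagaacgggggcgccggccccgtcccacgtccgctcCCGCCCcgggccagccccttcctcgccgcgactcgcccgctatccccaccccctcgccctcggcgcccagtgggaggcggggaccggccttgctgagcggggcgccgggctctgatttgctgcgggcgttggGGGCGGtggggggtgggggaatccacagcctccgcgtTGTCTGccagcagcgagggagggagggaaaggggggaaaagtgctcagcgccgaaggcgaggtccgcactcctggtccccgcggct

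Of the 9 members, 5 had a promoter in the RefSeq table of 32851. GC content was 37.7% for Col3a1, below the 52.7% median of all promoters, whereas it was 61% for Col1a2, 62.3% for Col11a1, 63.3% for Col5a3 and 75% for Col5a1. CAGACA, a core Smad-binding sequence, was held by Col1a2, Col3a1 and Col5a1 and by 21% of all promoters. Col3a1 held it at -239 and, on the other strand, at -65 from the start site, and was the only one of the 5 with TATAAA, at -117, a motif in 13.6% of promoters. CCAAT (37.4% of promoters) was in Col1a2, Col11a1 and Col5a3, and GGGCGG (35.7%) was in all but Col3a1. These matches describe the letters in the window and no binding was measured. In the genome, Col3a1 (chr1:45311538-45349706, plus strand) and Col5a2 (chr1:45374321-45503282, minus strand) are neighbours that point towards each other with 24614 bases between them, while the other members lie on separate chromosomes except for Col5a3 and Col12a1, both on chromosome 9.

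Per kilobase of annotated exon, Col3a1 was the most abundant member in every group. In WT-TRAMP at 30 weeks it stood at 155 ± 26.3 normalised reads per kilobase (SD, n = 3, as for all means below), followed by Col1a1 at 89.6 ± 8.6, Col1a2 at 78.4 ± 4.04 and Col12a1 at 54.4 ± 3.19. Col5a2 at 26.4 ± 3.44, Col14a1 at 20.9 ± 1.34 and Col5a1 at 20.5 ± 1.82 came next, and Col11a1 at 6.88 ± 5.09 and Col5a3 at 5.82 ± 0.446 were lowest. Col14a1 and Col5a1, and Col11a1 and Col5a3, were neighbours whose means differed by less than the larger SD. The order of Col1a1 and Col1a2 rests on the exon lengths used. Before division by length, Col1a2 had more reads than Col1a1 in every library (974 ± 50.2 against 588 ± 56.4 in WT-TRAMP at 30 weeks). In KO-TRAMP at 30 weeks the same scale ran from 1036 ± 317 for Col3a1 through 333 ± 82.4 for Col1a1 and 267 ± 15.7 for Col1a2 down to 17.4 ± 7.01 for Col11a1 and 12.1 ± 2.46 for Col5a3. Col5a2 and Col12a1 (121 ± 7.2) were within 1 SD of each other there. In WT-TRAMP at 10 weeks (the table shared with KO-TRAMP), Col3a1 at 117 ± 36.5, Col1a1 at 96.9 ± 36.5 and Col1a2 at 82.5 ± 21.6 lay within their SDs of each other. Within each library the order was still Col3a1, Col1a1, Col1a2. The values were 147, 134 and 99.4 in library 1 and 127, 96.2 and 89.8 in library 2. In library 3, the lowest for each gene, they were 75.9, 60.7 and 58.2. In A537T-TRAMP at 30 weeks Col3a1 at 331 ± 46.7 stood clear of Col1a1 at 172 ± 14.4, and Col1a2 followed at 137 ± 18.6. As a share of all reads, the 9 genes together held 0.213%, 0.153% and 0.182% in KO-TRAMP libraries 16, 17 and 18, against 0.0385% to 0.0424% in WT-TRAMP.

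KO-TRAMP prostates at 30 weeks had higher read counts than WT-TRAMP for 6 of the 9 members: Col1a1, Col1a2, Col3a1, Col5a1, Col5a2 and Col12a1, by 2.22-fold (Col12a1) to 6.67-fold (Col3a1). Across the genome 0.189% of the 16900 genes tested were called higher in this comparison (adjusted p under 0.05, limma). With edgeR on recovered reads only Col1a2 and Col12a1 passed, the other 4 having adjusted p of at most 0.0508, among 15 genes in all. All 9 members had an unadjusted p under 0.05 in this direction (7.7% of genes) and a log2 value of at least 1, which 8.56% of genes reached, and for 8 of them every KO-TRAMP library lay above every WT-TRAMP library, which held for 10.8% of genes. The median log2 fold change was 1.82 over the members and 0.01 over all genes.

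**Figure D1:**
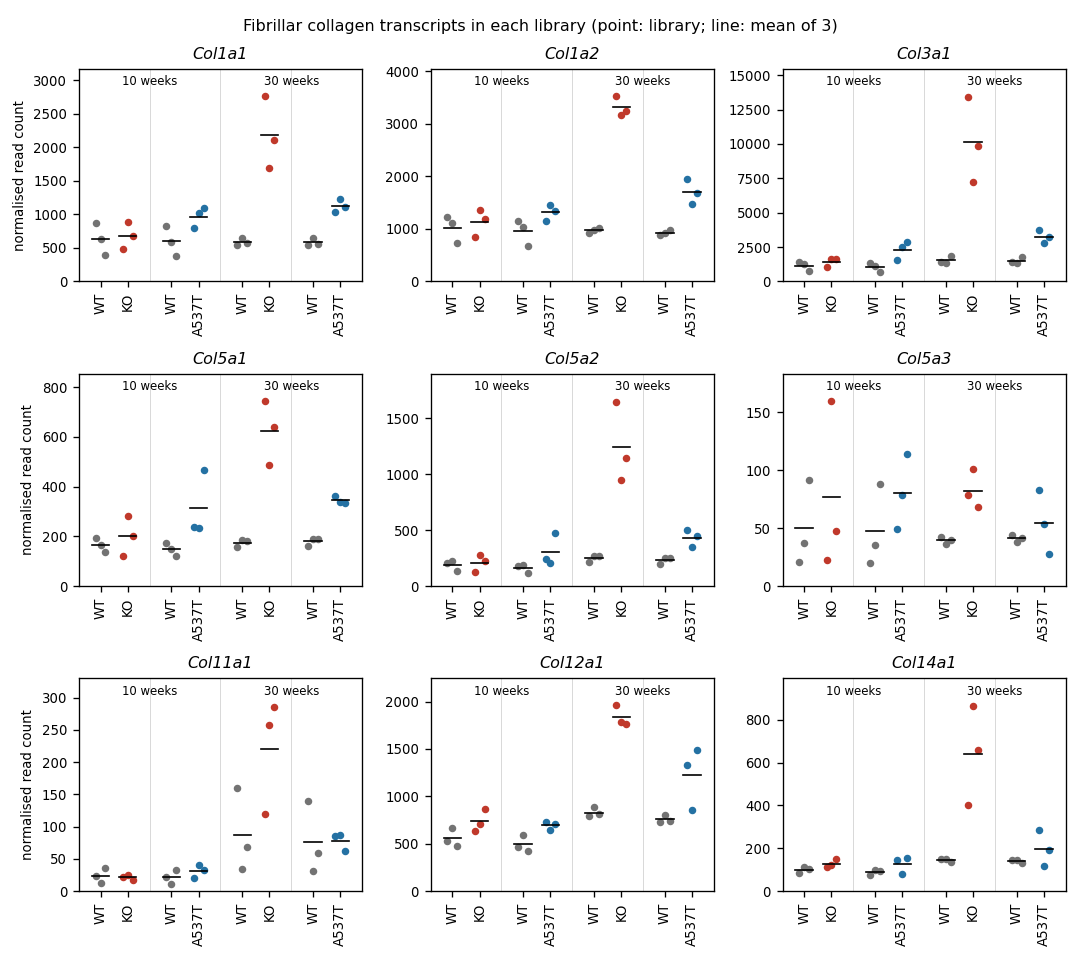
Normalised read count (linear axis from 0) of each member in each library, one panel per gene; points are libraries, short lines are means of 3, and WT-TRAMP is drawn once for each table it was normalised in. Col3a1 in KO-TRAMP at 30 weeks lies between 7206 and 13417, above the 1335 to 1817 of its WT-TRAMP libraries.

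The type I chains form the main fibril of most tissues. Col1a2 had 3538, 3165 and 3249 normalised reads in KO-TRAMP libraries 16, 17 and 18 and 923, 976 and 1024 in WT-TRAMP libraries 10, 11 and 12. Both groups were tight and far apart, with means of 3318 ± 196 and 974 ± 50.2. The log2 fold change of 1.77 (SE 0.10, adjusted p = 0.0135) had the smallest p of all genes tested. Col1a1 had 2763, 1690.3 and 2104 reads in KO-TRAMP and 542, 651 and 571 in WT-TRAMP, so that the lowest KO-TRAMP library exceeded the highest WT-TRAMP library by more than the range of the WT-TRAMP group. Its log2 fold change was 1.87 (SE 0.20, adjusted p = 0.0415).

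Type III showed the largest change of the family. Col3a1, the chain of the homotrimer that mixes with type I in soft organs, had 13417, 7206 and 9869.8 reads in KO-TRAMP and 1417, 1335 and 1817 in WT-TRAMP. Library 16 was highest and library 17 lowest among the knockouts, and the groups did not overlap. With means of 10165 ± 3116 and 1523 ± 258, the log2 fold change was 2.71 (SE 0.25, adjusted p = 0.0401).

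Among the type V chains, which regulate the start of fibrils, Col5a2 had 1649, 950.5 and 1141 reads in KO-TRAMP against 215, 272 and 272 in WT-TRAMP, with library 16 again highest and 17 lowest. Its log2 fold change was 2.27 (SE 0.23, adjusted p = 0.0415). Col5a1 had 745, 488 and 641 reads against 157, 184 and 182 and was higher by 1.82 (SE 0.19, adjusted p = 0.0415). Both chains were thus separated between the groups, Col5a2 by more than Col5a1. Col5a3, a chain of a minor type V form with a narrower distribution, had 78.2, 101 and 67.9 reads against 42.5, 36.5 and 39.9. Every KO-TRAMP library lay above WT-TRAMP, but the log2 value of 1.02 (SE 0.24) did not pass after adjustment (adjusted p = 0.26).

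Col11a1, a type XI chain best known from cartilage and found in activated stroma, was the only member whose groups overlapped at 30 weeks. It had 119, 258 and 286 reads in KO-TRAMP and 160.0, 34.5 and 68.4 in WT-TRAMP, with library 16 below WT-TRAMP library 10. The log2 value of 1.50 had an SE of 0.61 (adjusted p = 0.369). Neuroendocrine markers summed to 4.12, 16556 and 10379 normalised reads in libraries 16, 17 and 18 and to 1317, 4.8 and 633 in libraries 10, 11 and 12. Their part in the Col11a1 values was not tested.

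The fibril-associated members differed from each other in spread. Col12a1, which lies along type I fibrils in tissues under load, had 1963, 1786 and 1763 reads in KO-TRAMP against 790.0, 883 and 812 in WT-TRAMP, a tight pair of groups with a log2 fold change of 1.15 (SE 0.10, adjusted p = 0.0387), the smallest among the 6 called members. Col14a1, a related chain of mature interstitial matrix, had 400.2, 864 and 660.0 reads against 152, 152 and 136. Its library order was the reverse of that of Col3a1, with library 16 lowest and library 17 highest. The log2 value of 2.06 (SE 0.29) narrowly missed the threshold (adjusted p = 0.0749), although the groups did not overlap. The 6 calls rested on all WT-TRAMP libraries and on library 18, since without any 1 of libraries 10, 11, 12 or 18 no member passed. Without library 17, 4 members passed among 13 of 16748 genes, and without library 16, 7 passed among 3064 of 16950. In these fits the log2 fold change of Col3a1 stayed between 2.48 and 2.93 and that of Col1a2 between 1.72 and 1.80. Without the libraries over 1% seminal vesicle reads, which left library 11 alone for WT-TRAMP, Col3a1 was higher by 2.88 and Col1a2 by 1.76, and no member passed.

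**Figure D2:**
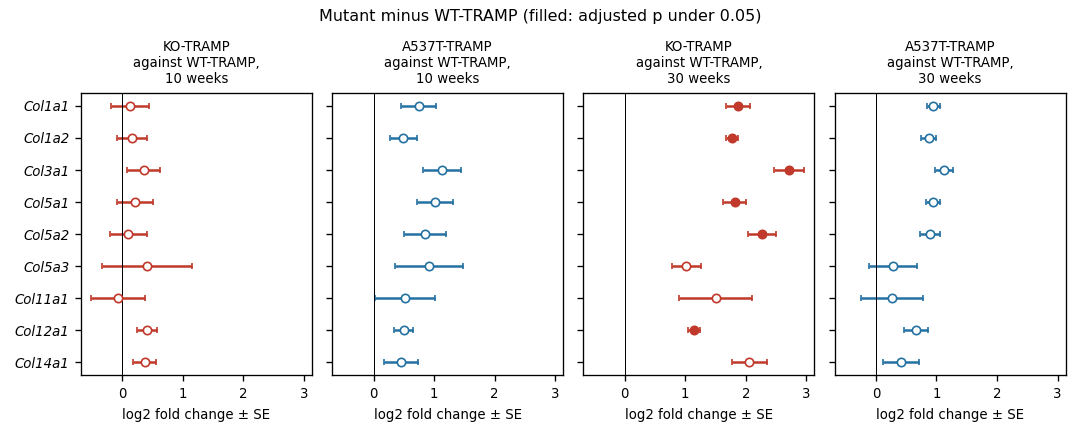
Log2 fold change against WT-TRAMP (points, with SE bars) of the 9 members in the 4 comparisons, one panel per line and age; filled points have an adjusted p under 0.05. The 6 filled points are all in the KO-TRAMP panel at 30 weeks, between 1.15 and 2.71.

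A537T-TRAMP at 30 weeks gave smaller differences, and no member passed after adjustment. No gene at all passed in this comparison (limma, 0% of 16261 genes, with 7.21% at an unadjusted p under 0.05), whereas DESeq2 called 5 members among 166 genes. The median log2 value of the members was 0.87, against 0.00 over all genes. For 6 members, the type I and III chains, Col5a1, Col5a2 and Col12a1, an unadjusted p under 0.05 was reached in the higher direction (3.98% of genes) and every A537T-TRAMP library lay above every WT-TRAMP library (7.36% of genes).

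Col1a1 had 1037, 1226 and 1114 reads in mutant libraries 13, 14 and 15 and 539.6, 643 and 564 in WT-TRAMP. The groups stood apart with little spread in either (1126 ± 94.8 against 582 ± 54), and the log2 value was 0.95 (SE 0.11, adjusted p = 0.137). Its partner chain Col1a2 had 1945, 1483 and 1693 reads against 883, 925 and 972, with a log2 value of 0.87 (SE 0.12, adjusted p = 0.179). Col3a1 had 3724, 2809 and 3218 reads against 1395, 1304 and 1776 and the largest log2 value of the members here, 1.13 (SE 0.15, adjusted p = 0.179). As in the knockout, no library of the mutant overlapped with WT-TRAMP for types I and III. Libraries 10, 12, 13 and 15 of this comparison were over 1% seminal vesicle reads, and it was not refitted without them.

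Col5a1 had 361, 339.8 and 333 reads against 163, 189 and 188, a log2 value of 0.94 (SE 0.12, adjusted p = 0.172). Col5a2 had 501, 346 and 452 against 197, 248 and 249, a log2 value of 0.89 (SE 0.17, adjusted p = 0.357). Neither chain overlapped between the groups, and library 14 was the lowest of the 3 mutants for Col5a2 but not for Col5a1. Col12a1 had 1332, 857 and 1489 reads against 725, 804 and 739, with library 14 close to WT-TRAMP and a log2 value of 0.66 (SE 0.20, adjusted p = 0.617). The remaining 3 members overlapped. Col14a1 had 287, 118 and 190.4 reads against 146, 143 and 129 (log2 value 0.41), Col5a3 had 82.7, 53.7 and 27.9 against 44.3, 37.7 and 41.6 (0.28), and Col11a1 had 85.2, 87.0 and 61.8 against 140.2, 30.5 and 59.7 (0.27).

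At 10 weeks the members spread widely within WT-TRAMP itself. Col1a1 had 878, 631 and 399 normalised reads in libraries 1, 2 and 3 and Col3a1 had 1439, 1249.8 and 745, library 3 being lowest for both. In KO-TRAMP libraries 7, 8 and 9, Col1a1 had 483, 880.4 and 677 reads and Col3a1 had 1029, 1632 and 1658. The groups overlapped for both genes, with log2 values of 0.13 (SE 0.31) and 0.35 (SE 0.27). No member passed after adjustment, in a comparison where 0.0129% of 15451 genes did. An unadjusted p under 0.05 was reached by 1 member (3.71% of genes were higher at that level), and 1 member had every mutant library above WT-TRAMP (5.77% of genes). The members' log2 values ran from -0.07 for Col11a1 to 0.41 for Col5a3 and Col12a1, with a median of 0.21 against -0.01 over all genes.

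The member nearest to a difference in KO-TRAMP at 10 weeks was Col12a1, with 632, 710.0 and 864 reads against 523, 669 and 476 in WT-TRAMP. Its lowest KO-TRAMP library lay below WT-TRAMP library 2, and the log2 value of 0.41 (SE 0.17) had an unadjusted p of 0.0401 and an adjusted p of 0.737. Col14a1, the member without overlap, had 111, 123 and 152 reads against 83.9, 111 and 102, a log2 value of 0.37 (SE 0.19, adjusted p = 0.767). Col5a3 had 22.5, 159.6 and 47.8 reads against 21.0, 37.5 and 91.4, and Col11a1 had 22.5, 24.5 and 16.5 against 23.6, 12.5 and 35.2. Both were low at this age and overlapped between the groups, Col5a3 with a wide spread in either group.

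In A537T-TRAMP at 10 weeks the members' log2 values ran from 0.45 for Col14a1 to 1.13 for Col3a1, and none passed after adjustment (0.00648% of 15438 genes did). Of the 9, 5 were higher at an unadjusted p under 0.05 (5.07% of genes) and 5 had every mutant library above WT-TRAMP (6.92% of genes). The median was 0.75, against -0.01 over all genes. Col3a1 had 1524, 2486 and 2838 reads in libraries 4, 5 and 6 of this line and 1319.8, 1148 and 682 in WT-TRAMP. The groups were separate, library 4 lying closest to WT-TRAMP, and the log2 value was 1.13 (SE 0.31, unadjusted p = 0.00821, adjusted p = 0.6). Col5a1 had 238, 234 and 467 reads against 172, 149.7 and 121, a log2 value of 1.02 (SE 0.30, adjusted p = 0.6), with library 6 well above the rest. Col1a1 had 791, 1016 and 1088 reads against 825, 594 and 373, which overlapped at a log2 value of 0.75 (SE 0.29). Col12a1 had 730.0, 641 and 709 against 464, 594 and 420.2, did not overlap and had a log2 value of 0.50 (SE 0.16, adjusted p = 0.6).

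Libraries 5 and 6 of this group also held 9.05% and 1.25% seminal vesicle reads, and library 4 held 0.0487%. Summed smooth muscle markers ran from 12022 to 37391 normalised reads in A537T-TRAMP against 4907 to 8187 in WT-TRAMP. All 10 markers were higher at an unadjusted p under 0.05, as were 5.07% of all genes. The mean of the fibroblast markers was higher by 0.78 on the log2 scale, and relative to it the members ran from -0.33 for Col14a1 to 0.34 for Col3a1, all with overlap. In KO-TRAMP at 10 weeks the smooth muscle sums ran from 9801 to 16325 against 5529 to 9201 in WT-TRAMP, also without overlap. The part of these cells in the collagen values at 10 weeks was not tested. With libraries 5 and 6 left out, which leaves library 4 as the only mutant, the log2 value of Col3a1 was 0.59 in place of 1.13 and that of Col1a1 was 0.48 in place of 0.75, whereas Col12a1 stood at 0.58 and Col14a1 at 0.69.

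The change of the knockout difference with age was tested as an interaction over 12 libraries. All 9 members had a larger log2 difference at 30 than at 10 weeks (50.3% of genes did), by 0.61 for Col5a3 to 2.35 for Col3a1 (SE 0.41, unadjusted p = 0.000131, adjusted p = 0.143). The interaction was 2.16 (SE 0.42) for Col5a2, 1.74 (SE 0.41) for Col1a1, 1.68 (SE 0.35) for Col14a1 and 0.74 (SE 0.21) for Col12a1, the smallest of the members that were called at 30 weeks. An unadjusted p under 0.05 was reached by 7 members, all in that direction (6.31% of genes). No member passed after adjustment, and no gene did (limma, 0% of 16431 genes, 13.1% at an unadjusted p under 0.05 in either direction). With DESeq2, 7 members passed among 389 genes. The A537T-TRAMP interactions lay between -0.64 for Col5a3 and 0.38 for Col1a2, with no member at an unadjusted p under 0.05 (6.36% of 15941 genes were) and a smallest adjusted p of 0.729. Col3a1 in particular had log2 values of 1.13 at both ages in A537T-TRAMP.

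The lines were then set against each other after each was measured from the WT-TRAMP mean of its own table. The KO-TRAMP and A537T-TRAMP comparisons of an age share their WT-TRAMP libraries, so only this direct difference bears on whether the lines differ. At 10 weeks KO-TRAMP minus A537T-TRAMP was negative for all 9 members, from -0.08 for Col14a1 to -0.81 for Col5a1, with none at an unadjusted p under 0.05 (3.43% of 15479 genes were) and adjusted p of at least 0.955 (0.0194% of genes passed). The value was positive for 50.4% of all genes. At 30 weeks it was positive for all 9 members and for 50.2% of genes, from 0.49 for Col12a1 to 1.64 for Col14a1. Col3a1 was higher in KO-TRAMP by 1.58 (SE 0.49, unadjusted p = 0.0181, adjusted p = 0.458) and Col5a2 by 1.37 (SE 0.35, adjusted p = 0.441). Col14a1, which overlapped with WT-TRAMP in A537T-TRAMP, had an SE of 0.44 and an adjusted p of 0.441. An unadjusted p under 0.05 was reached by 7 members, against 5.47% of 16680 genes, and none passed after adjustment (limma, 0% of genes, 10.8% at an unadjusted p under 0.05 in either direction). Leaving out library 16 brought 5 members past the threshold among 2498 of 16713 genes.

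Fibrils differ in the mix of their chains, so the ratios of read counts between members were compared within libraries. Col3a1 per Col1a1 read was 4.86, 4.26 and 4.69 in KO-TRAMP at 30 weeks against 2.62, 2.05 and 3.18 in WT-TRAMP. All knockouts lay above WT-TRAMP, 4.6 ± 0.306 against 2.62 ± 0.565, a log2 difference of 0.84 (exact two-sided permutation p = 0.1, the smallest possible). In A537T-TRAMP at that age the ratio was 2.92 ± 0.65 against 2.59 ± 0.56 (exact p = 0.5). At 10 weeks it also overlapped, with log2 differences of 0.22 in KO-TRAMP (exact p = 0.3) and 0.37 in A537T-TRAMP (exact p = 0.2).

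Col1a2 per Col1a1 read, by contrast, overlapped in all 4 comparisons. At 30 weeks it was 1.57 ± 0.297 in KO-TRAMP against 1.67 ± 0.15 (log2 difference -0.10, exact p = 0.7), and the A537T-TRAMP difference was -0.08 (exact p = 0.8). Other ratios are given as descriptions. In KO-TRAMP at 30 weeks Col5a2 per Col5a1 read was 1.98 ± 0.219 against 1.45 ± 0.0657, with every knockout above. Col12a1 per Col1a1 read was 0.868 ± 0.175 against 1.41 ± 0.0515, with every knockout below, and Col5a1 per Col1a1 read overlapped at 0.288 against 0.297. Against Col1a1, the knockouts thus held more Col3a1 and less Col12a1 per read, while Col1a2 and Col5a1 per Col1a1 read overlapped with WT-TRAMP.

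**Figure D3:**
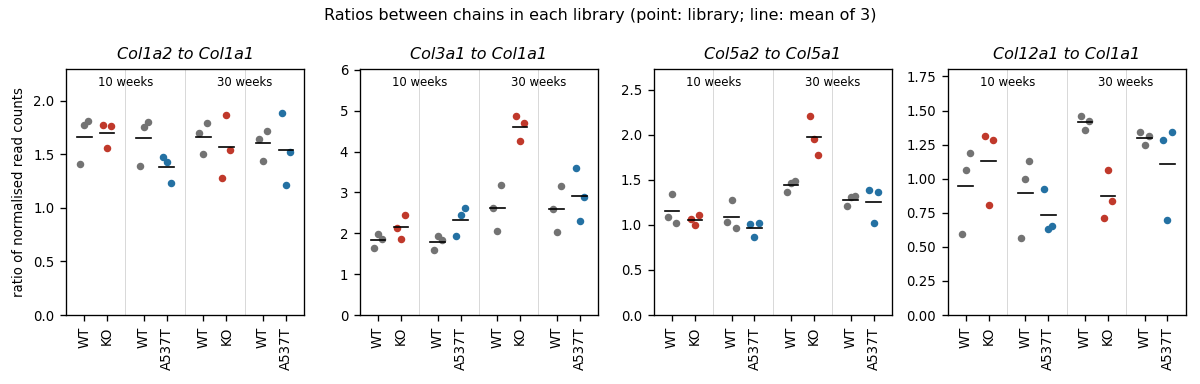
Ratio of normalised reads between pairs of members in each library (points, linear axes), with group means as short lines, for the 4 comparisons. Col3a1 per Col1a1 read in KO-TRAMP at 30 weeks lies between 4.26 and 4.86, above 2.05 to 3.18 in WT-TRAMP.

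Stromal and other marker genes moved beside the collagens at 30 weeks. The 8 fibroblast markers had a median log2 value of 1.23 in KO-TRAMP, all 8 at an unadjusted p under 0.05 and none after adjustment. Of all 16900 genes, 2289 had such an unadjusted p in either direction, and 7.7% were higher at that level. The summed reads of these markers were 3332, 5504 and 4564 in libraries 16, 17 and 18 against 1578 to 1989.6 in WT-TRAMP. The 9 members summed to 24673, 16509 and 19783 in the same libraries against 4398 to 4922. The order within the knockouts was reversed, library 16 having the highest member sum and the lowest fibroblast sum. Smooth muscle markers summed to 9204, 43915 and 30621 against 18543 to 32379 and overlapped, with a median log2 value of -0.02. Endothelial markers summed to 679, 3284 and 2254 against 397 to 522, and macrophage markers to 1758, 1235 and 1603 against 534 to 726, above WT-TRAMP in every knockout. Their part in the collagen values was not tested.

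In A537T-TRAMP at 30 weeks the fibroblast marker sums were 4926, 1443 and 3090.1 in libraries 13, 14 and 15, against 1450.1 to 1836 in WT-TRAMP. Library 14 lay just below the lowest WT-TRAMP library on this sum (1443 against 1450.1), which weighs the most abundant markers most. Its member sum of 7320.4 lay above all WT-TRAMP libraries (4234 to 4718). Its smooth muscle sum of 12565 was also the lowest of the mutants. Libraries 13 and 15 had fibroblast sums above WT-TRAMP together with higher member sums, and the part of these cells in the A537T-TRAMP values was not tested.

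**Figure D4:**
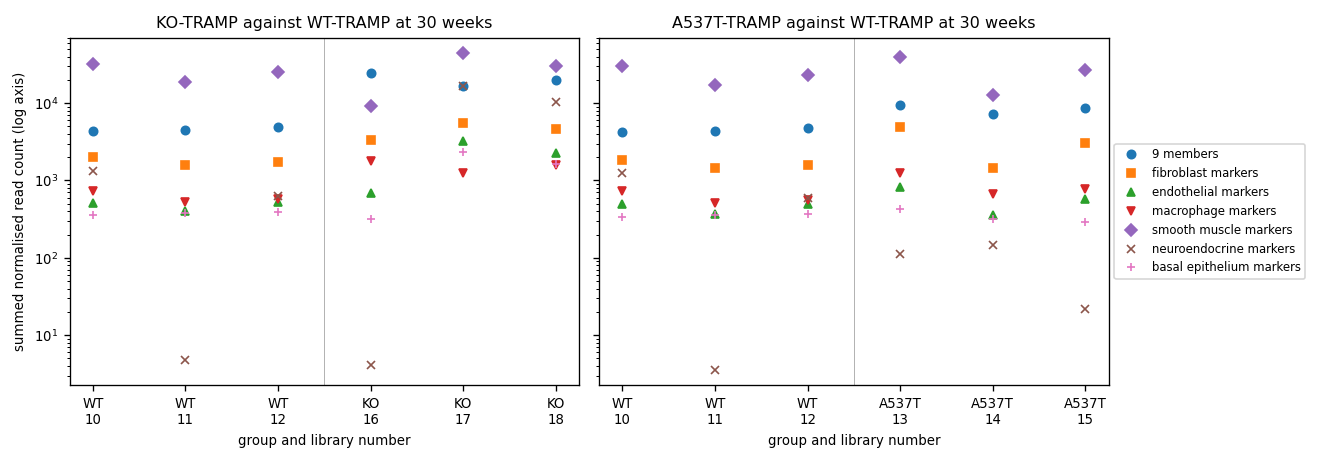
Summed normalised reads (log axis) of the 9 members and of 6 marker lists in each library at 30 weeks, by table and group. Member sums of 16509 to 24673 in KO-TRAMP and 7320.4 to 9356 in A537T-TRAMP lie above WT-TRAMP, while smooth muscle sums overlap.

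Measured relative to the mean of the fibroblast markers, a scale chosen after the values were seen, the members of KO-TRAMP at 30 weeks ran from -0.32 to 1.37. The difference of Col3a1 exceeded that of the markers by 1.37, Col5a2 by 0.93 and Col14a1 by 0.72 on the log2 scale, each with all knockouts above WT-TRAMP. Before scaling, 10.8% of all genes had every knockout above WT-TRAMP, and the share on this scale was not counted. Col1a1 at 0.53, Col1a2 at 0.43, Col5a1 at 0.48 and Col11a1 at 0.16 overlapped, as did Col5a3 at -0.32. Col12a1 turned from 1.15 to -0.19 and overlapped. In A537T-TRAMP at 30 weeks Col3a1 was at 0.41 with overlap on this scale, Col14a1 at -0.30 had every mutant below WT-TRAMP, and Col5a3 and Col11a1 (both -0.44) and Col12a1 (-0.06) were also below 0. At 10 weeks all 9 members of KO-TRAMP were below 0 on this scale, from -0.48 for Col11a1 to -0.01 for Col5a3 and Col12a1, with overlap. Read for read against Dcn, a small proteoglycan that binds fibrils, Col14a1 was 0.235 ± 0.00471 in KO-TRAMP at 30 weeks and 0.142 ± 0.019 in WT-TRAMP.

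The rest of the collagen pathway was read from named gene lists. Of 4 other fibril-forming chains 3 were tested in KO-TRAMP at 30 weeks. They were low genes, none passed, and the median log2 value was -0.11, with Col11a2 at 0.53 and Col24a1 at -0.29. The other fibril-associated chains had 5 of 8 tested, none passing, and a median of -0.16. Network-forming, beaded and other collagens had 22 of 24 tested, 15 with a value above 0, and a median of 0.61. The 1 that passed was Col4a2, a basement membrane chain, at 1048 ± 19.6 reads against 450.2 ± 64.5, a log2 fold change of 1.23 (SE 0.13, adjusted p = 0.0432).

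Among 20 of 22 tested genes of collagen synthesis in the endoplasmic reticulum, 17 had values above 0 and none passed after adjustment. The median was 0.52, against 0.01 over all genes. Serpinh1, the collagen chaperone HSP47, had 683 ± 157 reads against 261 ± 20.3 and a log2 value of 1.36 (SE 0.18, adjusted p = 0.0714), and Creb3l1, a transcription factor of collagen-secreting cells, stood at 1.61 (adjusted p = 0.285). Of the genes that trim and crosslink collagen outside the cell, 12 of 13 were tested, 11 lay above 0 and the median was 1.60, near that of the members. Adamts2, which removes the N-propeptide of fibrillar procollagens, passed at 197 ± 22.6 reads against 53.5 ± 7.57, a log2 fold change of 1.87 (SE 0.20, adjusted p = 0.0415). Of 9 tested degradation genes 8 lay above 0, with a median of 1.12, and the matrix metalloproteinase Mmp2 passed at 563 ± 71.5 reads against 222 ± 16.1 (log2 fold change 1.33, SE 0.14, adjusted p = 0.0415). Without library 10, 12 or 18 no gene at all passed in this comparison, so the calls of Col4a2, Adamts2 and Mmp2 were lost there too. Collagen receptors had a median of 0.30 with none of 9 passing, the uptake receptor Mrc2 being at 1.50 (adjusted p = 0.199) and the integrin subunit Itgb1 at 0.32 (adjusted p = 0.327).

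**Figure D5:**
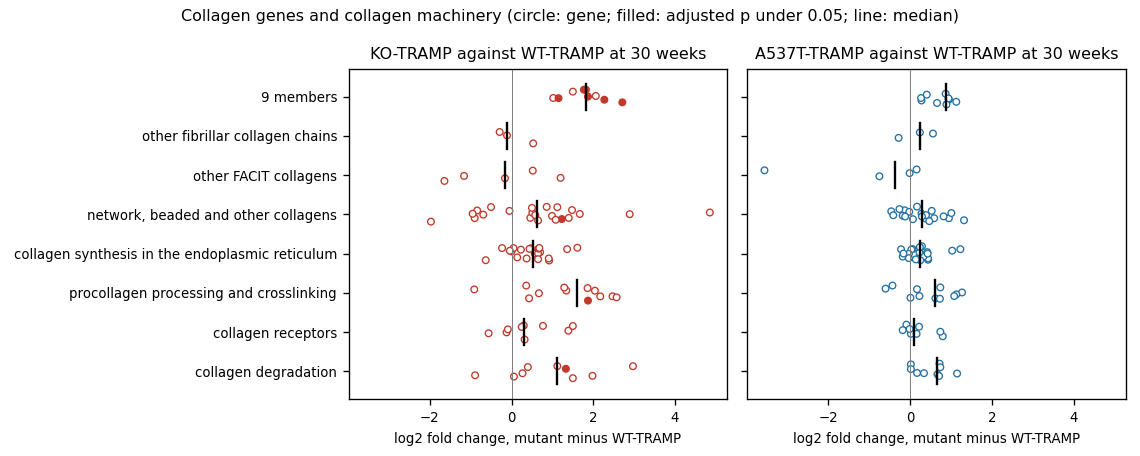
Log2 fold change of each tested gene (points) of the members and 7 further collagen pathway lists at 30 weeks in either mutant line, with each list's median as a line. In KO-TRAMP the members (median 1.82) and the processing genes (median 1.60) lie highest, and the other fibril-forming and fibril-associated chains lie around 0.

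In A537T-TRAMP at 30 weeks no gene of these lists passed. The medians were 0.62 for processing, 0.67 for degradation, 0.24 for synthesis and 0.29 for network-forming, beaded and other collagens. Serpinh1 had 521 ± 105 reads against 252 ± 21.1 (log2 value 1.03, adjusted p = 0.235), and Lox, the lysyl oxidase that starts crosslinks, had 273 ± 45.7 against 128 ± 18 (1.08, adjusted p = 0.235). Adamts2 stood at 1.27 (adjusted p = 0.361) and the basement membrane zone collagen Col15a1 at 1.01 (adjusted p = 0.201). At 10 weeks no list gene passed in either line. The processing list had a median of 0.81 in A537T-TRAMP and 0.16 in KO-TRAMP, and the synthesis list had 0.18 and 0.13.

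Outside the lists, the genes whose pattern was most like the mean of the members were Fstl1, Fbn1, Heg1, Matn2 and Slit3, among 9596 genes compared. The measure was the Pearson r with the members' mean over the 6 libraries of a table, averaged over the 4 tables, and it was 0.942 for Fstl1, 0.922 for Fbn1, 0.911 for Heg1, 0.896 for Matn2 and 0.884 for Slit3. Fstl1 is a secreted glycoprotein, Fbn1 builds microfibrils and Matn2 is an adaptor protein of the matrix, while Slit3 is a secreted guidance ligand and Heg1 a membrane protein of endothelium. The 6 points of a table hold both groups, and 2 tables of an age share their WT-TRAMP libraries, so these values describe likeness only.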

How the data were processed

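Total RNA from ventral and lateral prostate lobes of 18 mice was sequenced by the authors. Per the study's methods and the processing notes, reads were trimmed (Trim Galore 0.4.1, cutadapt 1.18), aligned with STAR 2.7.3a to GRCm38.p6 masked for nuclear mitochondrial sequences, and quantified with Salmon using strand, and gene counts were normalised in DESeq2 1.26. The deposited values are estimated counts divided by 1 factor per library, treated here as a signal on a linear scale. There was 1 table per line and age, and the WT-TRAMP libraries of an age appear in 2 tables. In each library of a table, 100% of values were whole multiples of a fixed step (tolerance 0.01), which gave the recovered reads and depth. The recovered reads of a WT-TRAMP library were identical in its 2 tables for only 30.9% to 37.6% of genes, so they are estimates set within a table. Intervals between libraries measure the spread between mice. Further files hold the authors' own shrunken fold changes and were not used.

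Genes with a mean of at least 10 were tested with limma 3.58.1 (R 4.3.3, lmFit, eBayes with trend, two-sided) on log2(normalised count + 1), so fold changes of low genes are understated. P-values were Benjamini-Hochberg adjusted over all genes tested, threshold 0.05. Ratios and Elac2 were compared with exact permutation tests. Each interaction used 12 libraries with an intercept per table, and the direct line comparison subtracted the WT-TRAMP mean of each table. The offset of a gene between the 2 tables of an age differed from gene to gene but little between WT-TRAMP libraries (median over genes of the SD of the log2 difference 0.00482 at 10 weeks and 0.00664 at 30 weeks). Levels per kilobase used the union of exons in GENCODE on GRCm38. Alternatives were a pseudocount of 0.5, no filter, TMM scaling, edgeR 4.0.16 and DESeq2 1.42.0 on recovered reads, array weights, leaving out each library and, chosen after seeing the data, leaving out libraries over 1% seminal vesicle reads and scaling to fibroblast markers. The seminal vesicle setting was run only for both lines at 10 weeks and for KO-TRAMP at 30 weeks. For A537T-TRAMP at 30 weeks too few libraries remained. Neither it nor the fibroblast scaling was run for the interactions or the direct comparisons. The direct comparisons were also not run with edgeR or DESeq2. The scripts were tested on simulated data. The members and lists were chosen with earlier results of these data known. Named genes were the members, Elac2, up to 4 passing genes per list and comparison or otherwise up to 2 with the smallest p, and the 5 most alike genes outside the lists.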

Additional observations from a re-analysis of the deposited data

How the results depend on the processing

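No paired analysis was possible because the column headers carry no replicate number shared between groups. In KO-TRAMP at 30 weeks the number of members called was 6 with a pseudocount of 0.5, without the filter and with TMM, 2 with edgeR (Col1a2 and Col12a1, the other 4 reaching adjusted p of at most 0.0508), 8 with DESeq2, 9 with array weights, 0 to 7 when any 1 library was left out and 0 without the libraries over 1% seminal vesicle reads. In A537T-TRAMP at 30 weeks it was 5 with DESeq2, 7 with array weights and 0 to 2 without 1 library (2 without library 11), and at 10 weeks 1 with DESeq2. The knockout interaction called 7 with DESeq2, 8 with array weights and 0 to 6 without 1 library (2 without library 3, 6 without library 16). KO-TRAMP against A537T-TRAMP at 30 weeks called 8 with array weights and 0 to 5 without 1 library. Elac2 was at 0.12 in A537T-TRAMP at 10 weeks without the seminal vesicle libraries and at -0.27 in KO-TRAMP at 30 weeks with array weights, and without 1 library it ran from -0.19 to 0.01 in A537T-TRAMP at 10 weeks and from -0.06 to 0.11 at 30 weeks. The Col1a2 to Col1a1 log2 difference without 1 library ran from -0.08 to 0.10 in KO-TRAMP at 10 weeks, from -0.24 to 0.03 at 30 weeks and from -0.23 to 0.08 in A537T-TRAMP at 30 weeks.

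Over all genes, 36 were called in KO-TRAMP at 30 weeks, 15 with edgeR, 805 with DESeq2, 10748 with array weights, 0 to 3064 without 1 library (3064 without library 16) and 0 without the seminal vesicle libraries. In A537T-TRAMP at 30 weeks 0 became 166 with DESeq2, 3388 with array weights and up to 145 without library 11. At 10 weeks KO-TRAMP had 2, 0 with edgeR, 83 with DESeq2, 1 to 9 without 1 library and 1 without the seminal vesicle libraries, and A537T-TRAMP had 1, 0 with the lower pseudocount, edgeR or no seminal vesicle libraries, 148 with DESeq2, 4 with array weights and 0 to 65 without 1 library. The interactions went from 0 to 1 without the filter, 389 with DESeq2, 5188 with array weights and 1944 without library 16 for KO-TRAMP, and to 49, 1645 and at most 20 for A537T-TRAMP with DESeq2, array weights and 1 library left out. The direct comparisons went from 3 to 9 without the filter and 0 to 2 without 1 library at 10 weeks, and from 0 to 1, 9283 with array weights and 2498 without library 16 at 30 weeks. The estimation of the array weights did not converge, and the cause of these shifts was not tested.

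Directions of single members turned in these cases. With array weights, KO-TRAMP at 10 weeks had Col5a2 at -0.02 and Col11a1 at 0.05, and A537T-TRAMP at 30 weeks had Col5a3 at -0.34. Without the seminal vesicle libraries Col11a1 at 10 weeks was at 0.09 in KO-TRAMP and -0.07 in A537T-TRAMP. The A537T-TRAMP interaction of Col3a1 was -0.004 with TMM, -0.00081 with edgeR, -0.02 with DESeq2 and -0.40 with array weights, and that of Col5a2 was -0.02, -0.03 and -0.39 with the last 3. Relative to fibroblast markers, KO-TRAMP at 30 weeks had Col12a1 at -0.19 and Col5a3 at -0.32, and at 10 weeks all 9 members were below 0, of which Col11a1 alone was below 0 before. On that scale A537T-TRAMP had Col1a1 at -0.03, Col1a2 at -0.29, Col11a1 at -0.27, Col12a1 at -0.28 and Col14a1 at -0.33 at 10 weeks, and Col5a3 and Col11a1 at -0.44, Col12a1 at -0.06 and Col14a1 at -0.30 at 30 weeks. Without 1 library, KO-TRAMP at 10 weeks ran from -0.17 to 0.40 for Col1a1, -0.07 to 0.35 for Col1a2, -0.07 to 0.53 for Col5a1, -0.14 to 0.42 for Col5a2, -0.34 to 1.05 for Col5a3 and -0.45 to 0.26 for Col11a1, and A537T-TRAMP at 30 weeks from -0.08 to 0.68 for Col5a3 and -0.25 to 0.84 for Col11a1. The interaction of Col5a3 in KO-TRAMP ran from -0.03 to 1.36. The A537T-TRAMP interactions ran from -0.07 to 0.50 for Col1a1, -0.27 to 0.28 for Col3a1, -0.25 to 0.24 for Col5a1, -0.20 to 0.41 for Col5a2, -0.76 to 0.32 for Col11a1, -0.0041 to 0.39 for Col12a1 and -0.35 to 0.29 for Col14a1. The direct difference at 10 weeks ran from -1.25 to 0.13 for Col5a3, -0.22 to 0.01 for Col12a1 and -0.37 to 0.09 for Col14a1. With 3 mice a group, a single mouse moved the calls more than the log2 values of the called members.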
